A study of Mus musculus with 8 samples.

Results

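The cytochrome P450 genes of mouse liver were described across 2 models of acute liver failure. The members were the protein-coding genes held in both count tables whose name began with Cyp and a digit. Pseudogenes, and Cyp2e1, Cyp1a2, Cyp3a11, Cyp7a1, Cyp7b1, Cyp8b1, Cyp27a1 and Cyp51, were left out. This left 92 members of the 48286 genes present in both tables, of which 21721 are protein-coding. By name they comprised 2 Cyp1, 4 Cyp2a, 5 Cyp2b, 15 Cyp2c, 8 Cyp2d, 8 Cyp2j, 8 Cyp3a, 8 Cyp4a and 9 Cyp4f genes, and 25 others. RNA-seq was run on livers of 8 wild-type male C57BL/6J mice aged 8 to 9 weeks, taken 24 h after the dose. Fed mice received PBS or thioacetamide (TAA, 200 mg/kg, injected into the peritoneum), and mice fasted overnight received PBS or acetaminophen (APAP, 500 mg/kg, given into the stomach), with the fast kept up for 6 h after APAP, and n = 2 livers in each of the 4 groups. Each treatment was compared with its own PBS group. Feeding state differs between the models, so the drug and the fast cannot be told apart when the models are set beside each other.

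Cytochrome P450 enzymes are heme proteins that insert an oxygen atom into drugs, steroids, fatty acids and vitamins, and most of those in liver sit in the endoplasmic reticulum of hepatocytes. They take electrons from the reductase Por and from cytochrome b5. Many P450 genes lie in tandem clusters of close relatives and are controlled by nuclear receptors such as CAR, PXR and PPARA together with HNF4A and C/EBP factors. Both TAA and APAP injure hepatocytes after P450 enzymes convert them to reactive products, above all near the central vein, where several P450s are most abundant.

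The libraries held 35711238 to 41453751 counts in named genes in the fed model and 22320118 to 27110041 in the fasted model. Levels are given as CPM, the usual per-library scaling of counts, with totals adjusted by TMM factors, and a gene was called a DEG at an adjusted p under 0.05 in edgeR's quasi-likelihood test. The 14 hepatocyte markers matched of 15 listed summed to 93200 and 126293 CPM in PBS livers and 95732 and 127828 CPM after TAA, where 2 fell and 3 rose (median log2 fold change -0.38). They summed to 141157 and 128816 CPM in fasted PBS livers and 130838 and 121566 CPM after APAP, where 8 fell and 3 rose (median -0.39). The 3 that rose were the fibrinogen genes Fga, Fgb and Fgg in both models. In bulk liver, fewer cells of a type and less RNA per cell cannot be told apart. Of the 18 pericentral hepatocyte markers, 8 fell and 1 rose after TAA, and 16 fell after APAP. Of the 18 periportal markers, 11 fell and 1 rose after TAA, and 12 fell and 2 rose after APAP. Of all tested genes, 13.8% fell and 12.1% rose after TAA, and 27.5% fell and 28.6% rose after APAP. Summed pericentral markers were 5795 and 6457 CPM in PBS livers against 1464 and 2412 CPM after TAA, and 5769 and 5322 CPM in fasted PBS livers against 1611 and 1931 CPM after APAP. Summed periportal markers were lower too, at 12818.5 and 14198 CPM in PBS livers against 6564 and 6169 CPM after TAA. In the fasted model they were at 16091 and 13068 CPM in PBS livers against 6555 and 6976 CPM after APAP. Of the monocyte and macrophage markers, 5 of 12 tested rose after TAA and 6 of 11 after APAP, and none was called lower, where 12.1% and 28.6% of all tested genes rose. Their summed level was 1702 and 1960.3 CPM in PBS livers against 2895.0 and 2293 CPM after TAA, and 1216 and 1292 CPM in fasted PBS livers against 1107 and 1164 CPM after APAP. Of 12 Kupffer cell markers 8 fell and 1 rose after TAA, and 2 fell after APAP, where 13.8% and 27.5% of all tested genes fell. The part of these cells in the P450 results was not tested.

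P450 genes had mostly negative fold changes in both models, in 46 of 61 tested members after TAA and 43 of 62 after APAP. Of the members that passed the filter on low counts after TAA, 16 fell and 1 rose. Those 16 are 26.2% of the tested members, where 13.8% of all 16847 tested genes fell (25.8% were called in either direction). After APAP, 62 members were tested, and 34 fell and 7 rose. Thus 54.8% of the tested members fell, against 27.5% of all 14794 tested genes, and 11.3% rose, against 28.6% (56.2% of all genes were called in either direction). The median log2 fold change of the tested members was -0.87 after TAA and -0.53 after APAP, where that of all tested genes was 0.03 and 0.04. The filter kept 59 members in both models, 2 after TAA alone, 3 after APAP alone and 28 in neither, and 8 of these 28 had no count in any liver (Cyp2j7, Cyp2j11, Cyp2j12, Cyp2j13, Cyp4a29, Cyp4a30b, Cyp19a1 and Cyp2w1). The other 20 untested members were Cyp2b13, Cyp2b19, Cyp2b23, Cyp2c65, Cyp2c66, Cyp3a16, Cyp3a41a, Cyp3a41b, Cyp3a57, Cyp4f37, Cyp4f40, Cyp11a1, Cyp11b1, Cyp11b2, Cyp24a1, Cyp26c1, Cyp27b1, Cyp2ab1, Cyp2t4 and Cyp4x1, and none of them passed 1.54 CPM in any liver.

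**Figure D1:**
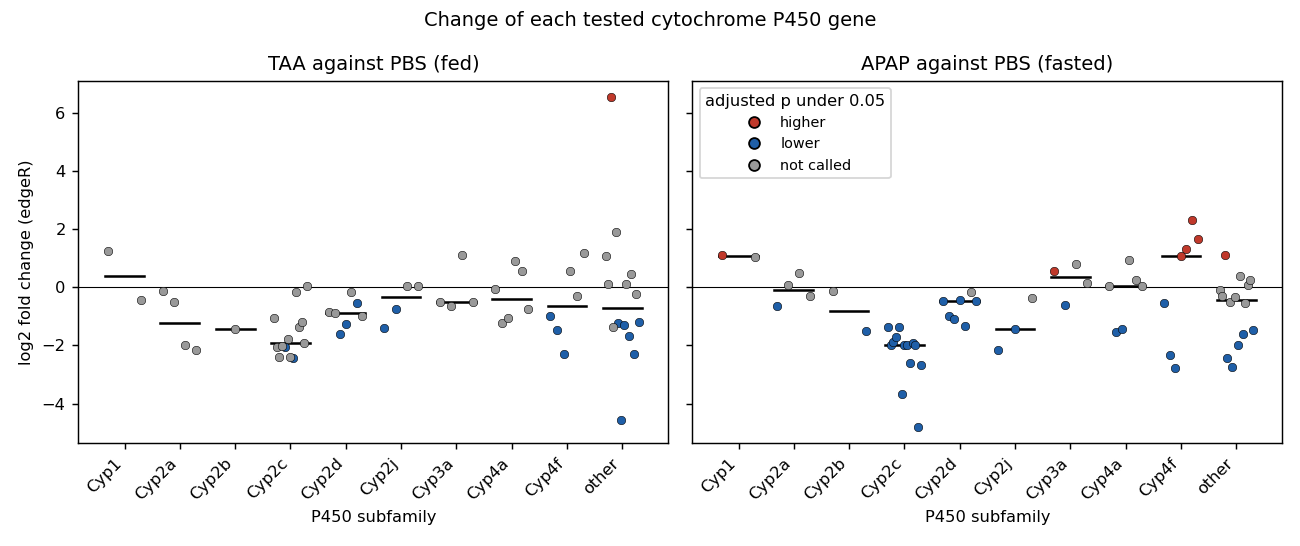
Log2 fold change (y axis) of every tested P450 gene by subfamily (x axis), TAA against PBS on the left and APAP against fasted PBS on the right. Points are genes, colour gives the call and the black bar is the median, which lay at -1.91 for Cyp2c after TAA and -1.99 after APAP.

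Summed over all members, the P450 level was 13465 and 15024 CPM in the PBS livers and 5258 and 8142 CPM in the TAA livers, and 15003 and 13980.1 CPM in the fasted PBS livers and 7325 and 8071 CPM in the APAP livers. Both treated livers lay below both controls in each model, with the mean 2.13-fold lower after TAA and 1.88-fold lower after APAP. The TAA livers differed from each other. TAA replicate 1 lay below TAA replicate 2 in 48 of the 61 tested members, and in 18 of them the gap was over 2-fold, while the reverse gap of over 2-fold was seen in 2. The APAP livers were over 2-fold apart in 4 of 62 tested members. DESeq2, run on the same counts, called 27 members lower and 3 higher after TAA, and 32 lower and 5 higher after APAP. A fit without 1 PBS liver leaves 1 liver in that group, and fewer of all tested genes were then called lower as well. The number of members called lower after TAA changed with the liver left out. It was 4 without PBS replicate 1, 1 without PBS replicate 2 and 31 without TAA replicate 2. Of the 17 calls in either direction, 3 remained without PBS replicate 1 (Cyp2j5, Cyp4f15 and Cyp46a1) and 1 without PBS replicate 2 (Cyp2r1). The count of lower members after APAP stayed between 31 and 33 when any 1 liver was left out.

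**Figure D2:**
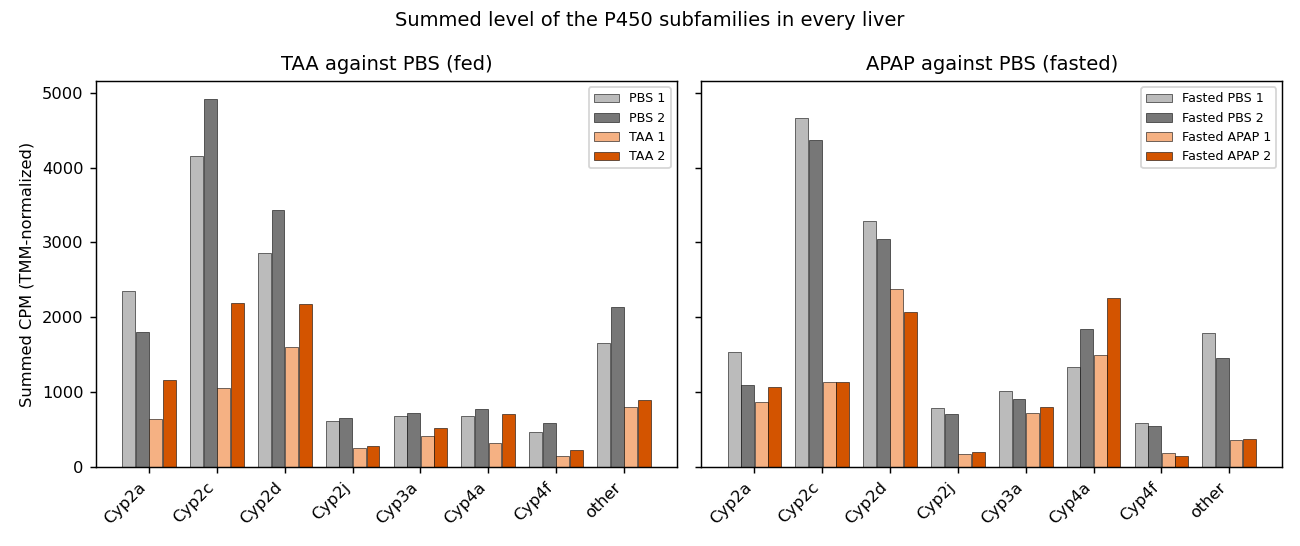
Summed CPM (y axis, from 0) of each P450 subfamily (x axis) in every liver, with grey bars for PBS and orange bars for treated livers. Cyp1 and Cyp2b, which summed to under 10 CPM in every liver, are not drawn. The Cyp2c sum was 1132 and 1139.7 CPM in the APAP livers, while the Cyp4a sum after APAP was 1494 and 2259 CPM.

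The Cyp2c subfamily, which hydroxylates drugs and turns arachidonic acid into epoxides, was the one in which every tested member fell after APAP. All 13 tested of 15 members were called lower, where 27.5% of all tested genes fell. Both APAP livers lay below both controls in all 13, as in 38.1% of all tested genes, and the median log2 fold change was -1.99. In 1 fit of all 8 livers 9 of the 13 were called, without Cyp2c29, Cyp2c37, Cyp2c38 and Cyp2c55, and Cyp2c39 was not called without APAP replicate 1 (adjusted p = 0.0506). In TAA livers 12 of the same 13 had a negative fold change and 11 had both TAA livers below both controls, as in 34% of all tested genes, with a median of -1.91, but only Cyp2c39 and Cyp2c54 passed the test. These are 15.4% of the tested members, where 13.8% of all tested genes fell. DESeq2 called 6 lower. The subfamily summed to 4152 and 4909.8 CPM in the PBS livers and 1053 and 2187 CPM in the TAA livers, and to 4666 and 4372 CPM in the fasted PBS livers and 1132 and 1139.7 CPM in the APAP livers. In the TAA group 12 of 13 members were lower in replicate 1 than in replicate 2, and in 10 of them by over 2-fold.

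Cyp2c29 and Cyp2c50 had the highest counts of the subfamily. Cyp2c29 (chr19:39269405-39330713, + strand, GRCm38), a drug-metabolizing enzyme of hepatocytes that is induced through CAR, was at 1002 and 1305 CPM in the PBS livers and 84.6 and 464 CPM in the TAA livers. Both TAA livers were lower than both controls, but replicate 1 was far below replicate 2, and the change did not pass the test (log2 fold change -2.07 ± 0.79 SE, adjusted p = 0.119). It was at 1225 and 1269.6 CPM in the fasted PBS livers and 305 and 327 CPM in the APAP livers, where the replicates lay close together (log2 fold change -1.98 ± 0.12 SE, adjusted p = 1.11e-06), a call that was lost in 1 fit of all 8 livers (adjusted p = 0.0713). Cyp2c50 stood at 891 and 1160.2 against 77.99 and 310.5 CPM in the fed model (log2 fold change -2.40 ± 0.67 SE, adjusted p = 0.054) and at 959 and 804 against 220.3 and 225 CPM in the fasted model (log2 fold change -1.99 ± 0.13 SE, adjusted p = 1.66e-06). Cyp2c54 was at 343 and 434 against 31.8 and 113 CPM (log2 fold change -2.43 ± 0.61 SE, adjusted p = 0.0428) and at 337 and 307 against 88.96 and 73.7 CPM (log2 fold change -1.99 ± 0.13 SE, adjusted p = 1.57e-06). It thus fell in both models, though the TAA call was lost without either PBS replicate (adjusted p up to 0.145).

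The steepest falls of the subfamily after APAP were in Cyp2c69 and Cyp2c40. Cyp2c69 (chr19:39842814-39886799, - strand) was at 18.4 and 23.9 CPM in the fasted PBS livers and 0.821 and 0.698 CPM in the APAP livers (log2 fold change -4.79 ± 0.23 SE, adjusted p = 2.52e-07). Cyp2c40 was at 111 and 118 CPM in the fasted PBS livers and 7.84 and 10.2 CPM in the APAP livers (log2 fold change -3.66 ± 0.14 SE, adjusted p = 8.64e-08). Both genes had lower levels in the TAA livers than in the PBS livers, at 1.25 and 11.3 CPM for Cyp2c69 and 8.26 and 47.4 CPM for Cyp2c40, and neither passed the test (adjusted p = 0.208 and 0.165). Their transcripts share sequence, with 46.3% of the 50-base windows of Cyp2c69 found in Cyp2c40 and 41.0% of those of Cyp2c40 found in Cyp2c69. Counting transcripts of any other gene, 54.8% in Cyp2c69 and 70.2% in Cyp2c40 recur. The split of reads among these genes and their relatives is thus uncertain. Cyp2c68 and Cyp2c67 next to them in the cluster, with log2 fold changes of -2.003 and -1.93 after APAP, share 43.3% and 52.8% of windows. Cyp2c55, at 9.99 and 10.3 CPM in fasted PBS livers, fell to 1.11 and 2.20 CPM (adjusted p = 5.25e-05, and 0.0657 in 1 fit of all 8 livers), and its TAA livers, at 0.767 and 6.60 CPM, lay on both sides of the PBS livers.

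Cyp2c70 fell after APAP and was near its control level after TAA. In mice this enzyme makes muricholic acids from other bile acids. It lies at chr19:40153353-40187333, - strand, at one end of the main Cyp2c cluster. It was at 606 and 438 CPM in the PBS livers and 542 and 535 CPM in the TAA livers, with the TAA livers inside the range of the controls (log2 fold change 0.045 ± 0.23 SE, adjusted p = 0.897). After APAP it fell in both livers, with 588 and 485 against 94.6 and 73.04 CPM (log2 fold change -2.68 ± 0.16 SE, adjusted p = 1.16e-06). The difference between the 2 effects, tested in a fit of all 8 livers, was 2.69 ± 0.29 SE, adjusted p = 0.00154, and it was called whichever liver was left out (adjusted p 0.000986 to 0.0122). Cyp2c23, which lies apart from the main cluster on the same chromosome and makes epoxides of arachidonic acid, fell after APAP (log2 fold change -1.37 ± 0.13 SE, adjusted p = 1.85e-05) and missed the threshold after TAA (log2 fold change -1.07 ± 0.34 SE, adjusted p = 0.0704).

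**Figure D3:**
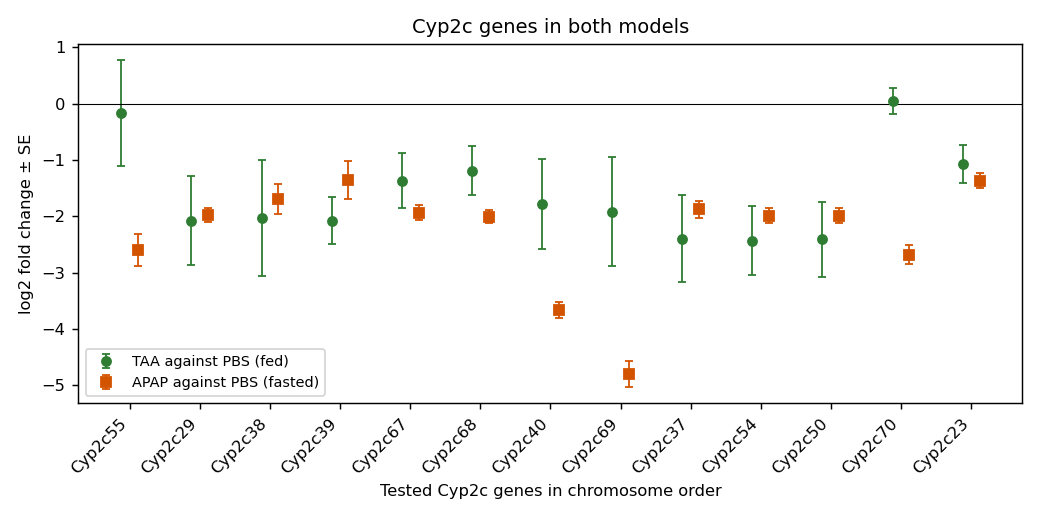
Log2 fold change with its SE (y axis) of the 13 tested Cyp2c genes in chromosome order (x axis), with circles for TAA against PBS and squares for APAP against fasted PBS. The squares all lie below -1, and the circle of Cyp2c70 lies at 0.045.

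The promoters of Cyp2c genes whose changes were alike or unlike are shown with motifs of the liver factors. Sequences are RefSeq windows on GRCm38.p6 from 250 bases before to 50 bases after the start, read on the strand of the gene. The RefSeq start of Cyp2c29 lies inside the longer GENCODE gene given above. Promoters were found for 71 of the 92 members and for 13 of the 15 Cyp2c genes. Capitals mark the letters TATAAA, the HNF4A site CAAAGTCC, the nuclear receptor half-site AGGTCA and the C/EBP site TTGCNNAA, searched on both strands, with no overlap between matches in the windows shown. The windows are chr19:39286835-39287134 (+) for Cyp2c29, chr19:39812765-39813064 (-) for Cyp2c40, chr19:39886720-39887019 (-) for Cyp2c69, chr19:40187237-40187536 (-) for Cyp2c70 and chr7:27119705-27120004 (+) for Cyp2f2, a gene outside the cluster described further on.
Cyp2c29: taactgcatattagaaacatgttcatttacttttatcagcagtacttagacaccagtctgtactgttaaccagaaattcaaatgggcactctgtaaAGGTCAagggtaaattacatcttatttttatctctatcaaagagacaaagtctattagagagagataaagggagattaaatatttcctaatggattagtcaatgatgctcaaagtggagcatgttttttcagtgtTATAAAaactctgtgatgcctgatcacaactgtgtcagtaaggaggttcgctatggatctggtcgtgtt
Cyp2c40: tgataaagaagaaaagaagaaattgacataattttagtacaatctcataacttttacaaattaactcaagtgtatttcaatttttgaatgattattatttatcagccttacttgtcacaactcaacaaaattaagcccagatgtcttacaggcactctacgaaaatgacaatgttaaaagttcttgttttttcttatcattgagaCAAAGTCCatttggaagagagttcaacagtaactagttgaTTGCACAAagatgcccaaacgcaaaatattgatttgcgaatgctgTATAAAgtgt
Cyp2c69: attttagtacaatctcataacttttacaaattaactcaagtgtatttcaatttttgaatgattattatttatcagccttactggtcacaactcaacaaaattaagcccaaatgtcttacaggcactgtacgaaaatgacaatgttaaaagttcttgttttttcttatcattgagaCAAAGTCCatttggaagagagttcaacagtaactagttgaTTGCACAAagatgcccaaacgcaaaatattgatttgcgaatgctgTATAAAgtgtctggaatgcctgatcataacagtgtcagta
Cyp2c70: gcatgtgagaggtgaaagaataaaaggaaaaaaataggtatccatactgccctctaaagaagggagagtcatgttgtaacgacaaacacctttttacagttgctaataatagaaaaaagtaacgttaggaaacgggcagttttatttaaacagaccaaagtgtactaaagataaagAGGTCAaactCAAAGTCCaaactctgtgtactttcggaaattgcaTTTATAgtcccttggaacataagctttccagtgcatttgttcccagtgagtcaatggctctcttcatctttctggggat
Cyp2f2: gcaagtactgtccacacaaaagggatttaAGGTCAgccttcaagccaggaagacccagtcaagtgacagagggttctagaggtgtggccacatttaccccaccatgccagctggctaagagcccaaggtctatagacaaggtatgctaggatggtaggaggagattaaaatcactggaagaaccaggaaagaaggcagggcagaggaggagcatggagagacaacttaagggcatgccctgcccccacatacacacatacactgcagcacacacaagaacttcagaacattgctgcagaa

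The Cyp2c40 and Cyp2c69 windows are nearly the same sequence set 30 bases apart, identical at 267 of the 270 positions they share (98.9%). Both hold the HNF4A and C/EBP matches and the letters TATAAA. These letters begin 19 bases before the RefSeq start in Cyp2c29 and, on the other strand, 29 bases before it in Cyp2c70, but at bases 40 and 10 on the other side of it in Cyp2c40 and Cyp2c69. Cyp2c70 holds an HNF4A match and a half-site just before it, and Cyp2c29 a half-site and a TATAAA. The HNF4A motif was in 7 of 14 Cyp2c windows (50%), in 16% of the windows of all members and in 1.42% of all 32851 windows of the same length. In the windows of members that fell after APAP it was in 16.1%. The C/EBP motif was in 25.9% of member windows and 10.8% of all windows, the TATAAA in 37% and 13.6%, and the AGGTCA in 25.9% and 16.3%. These matches are letters in a window and say nothing of binding.

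The Cyp2d genes, drug and steroid hydroxylases, had smaller median fold changes than Cyp2c in both models, a difference that was not tested. Of all tested genes, 13.8% fell after TAA and 27.5% fell after APAP. After TAA 3 of 7 tested Cyp2d members fell and all 7 had a negative fold change, with a median of -0.87. After APAP 6 of 7 fell, with a median of -0.49, though only 2 of them were called when counts were scaled by library totals alone, in 1 fit of all 8 livers, or when APAP replicate 2 was left out. Cyp2d9, a testosterone hydroxylase that is male-biased in mouse liver, was at 1346 and 1355 CPM in the PBS livers and 481 and 862 CPM in the TAA livers (log2 fold change -1.01 ± 0.32 SE, adjusted p = 0.0687). It was at 1472 and 1384 against 1116 and 928 CPM in the fasted model, lower in both APAP livers (log2 fold change -0.48 ± 0.14 SE, adjusted p = 0.0122). Cyp2d26 was at 617 and 902 against 659.7 and 685 CPM after TAA, with overlapping livers (adjusted p = 0.631), and at 807 and 695 against 573 and 535 CPM after APAP (log2 fold change -0.44 ± 0.13 SE, adjusted p = 0.0146). Cyp2d22 fell in both models, from 222 and 309.9 to 95.1 and 127 CPM after TAA (log2 fold change -1.26 ± 0.25 SE, adjusted p = 0.0193) and from 293 and 226 to 129 and 112 CPM after APAP (log2 fold change -1.11 ± 0.15 SE, adjusted p = 1.44e-04). The TAA calls of Cyp2d22 and Cyp2d12 were each lost without PBS replicate 1, PBS replicate 2 or TAA replicate 1 (adjusted p of Cyp2d22 up to 0.11), and that of Cyp2d40 whichever liver was left out (up to 0.155) and with library totals alone (0.110). Cyp2d12 fell in both models (adjusted p = 0.0194 and 0.0179), and Cyp2d40 fell after TAA (57.1 and 57.2 to 39.1 and 38.4 CPM, adjusted p = 0.0293). After APAP Cyp2d40 was at -0.17 on the log2 scale (adjusted p = 0.292).

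Cyp2j5, an arachidonic acid epoxygenase of liver and kidney, fell in every treated liver with little spread. It was at 519.8 and 561 CPM in the PBS livers and 200.5 and 207 CPM in the TAA livers (log2 fold change -1.41 ± 0.18 SE, adjusted p = 0.00668), and at 675 and 619.9 CPM in the fasted PBS livers and 134 and 159 CPM in the APAP livers (log2 fold change -2.15 ± 0.13 SE, adjusted p = 1.12e-06). Cyp2j6 was at 91.8 and 84.4 against 48.03 and 56.9 CPM (log2 fold change -0.75 ± 0.15 SE, adjusted p = 0.0224) and at 108 and 88.3 against 34.7 and 38.01 CPM (log2 fold change -1.43 ± 0.12 SE, adjusted p = 9.16e-06). No liver of a treated group overlapped with its controls for either gene. Both treated livers lay below both controls in 34% of all tested genes after TAA and 38.1% after APAP. The TAA call was lost without PBS replicate 2 for Cyp2j5 (adjusted p up to 0.0637), and without either PBS replicate or TAA replicate 1 for Cyp2j6 (up to 0.114). Cyp2j8 and Cyp2j9, at most at 11.3 CPM in a liver, were not called, and 4 of the 8 members had no count at all.

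The Cyp4f subfamily split into members that fell and members that rose. Its enzymes hydroxylate the end of fatty acid and eicosanoid chains. After APAP 7 of 9 members were tested, and 3 fell and 4 rose, where 27.5% and 28.6% of all tested genes did. Of those that rose, Cyp4f39 had 8 counts in each fasted PBS liver and passed the filter on low counts through the APAP livers alone. Cyp4f18, with 10 and 20 counts in the fasted PBS livers, passed it with the help of the APAP livers. The count of 4 is thus not independent of the filter. Cyp4f14, a leukotriene B hydroxylase of liver, was at 250.4 and 305 CPM in the PBS livers and 77.6 and 124 CPM in the TAA livers (log2 fold change -1.46 ± 0.27 SE, adjusted p = 0.017), and at 370.1 and 346 CPM in the fasted PBS livers and 81.5 and 60.4 CPM in the APAP livers (log2 fold change -2.33 ± 0.15 SE, adjusted p = 1.65e-06). Cyp4f15 was at 136 and 195 CPM in the PBS livers and 25.4 and 41.6 CPM in the TAA livers (log2 fold change -2.30 ± 0.31 SE, adjusted p = 0.00795) and at 140.1 and 124 CPM in the fasted PBS livers and 19.3 and 18.9 CPM in the APAP livers (log2 fold change -2.79 ± 0.12 SE, adjusted p = 1.17e-07). Cyp4f13, the third member to fall, changed by -0.98 after TAA (adjusted p = 0.0282) and -0.53 after APAP (adjusted p = 0.00167) on the log2 scale. These 3 genes carried most of the Cyp4f counts. Without PBS replicate 2 none of the 3 was called after TAA (adjusted p up to 0.103 for Cyp4f14 and 0.0527 for Cyp4f15), and without PBS replicate 1 only Cyp4f15 was.

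The Cyp4f genes that rose after APAP were low in level. Cyp4f17 was at 9.34 and 9.65 CPM in the fasted PBS livers and 28.9 and 17.9 CPM in the APAP livers (log2 fold change 1.30 ± 0.23 SE, adjusted p = 0.00185), and its TAA livers, at 5.37 and 5.56 CPM, lay within the range of the PBS livers. Cyp4f16 rose from 2.52 and 2.31 to 5.34 and 4.88 CPM (adjusted p = 0.00409), and Cyp4f39 from 0.325 and 0.369 to 1.27 and 0.955 CPM (adjusted p = 0.0156), though the call of Cyp4f39 was lost by DESeq2 and whichever liver was left out. Cyp4f18, which breaks down leukotriene B in mouse neutrophils, went from 0.406 and 0.924 to 2.998 and 3.56 CPM after APAP (log2 fold change 2.31 ± 0.41 SE, adjusted p = 9.87e-04). It was at 2.92 and 1.85 CPM in the PBS livers and 6.16 and 4.56 CPM after TAA (adjusted p = 0.0581). Of 14 neutrophil markers, 8 were tested after APAP and all 8 rose, where 28.6% of all tested genes rose. The 14 summed to 3.01 and 3.69 CPM in the fasted PBS livers against 26.4 and 26.1 CPM after APAP. Genes this low in controls can pass the filter on low counts through the APAP livers, so this count is not independent of the filter. After TAA 6 of 13 tested rose and 5 fell, where 12.1% and 13.8% of all tested genes did. The sums were 116 and 85.9 CPM against 125 and 107 CPM. The part of neutrophils in the Cyp4f18 values was not tested. Cyp4f16, Cyp4f18 and Cyp4f39 are below the 10 CPM level used to name genes and were added after their values were seen.

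The Cyp4a genes, fatty acid hydroxylases that PPARA switches on during fasting, divided in another way. Cyp4a10 was at 122 and 274 CPM in the PBS livers and 126 and 249 CPM in the TAA livers, and at 559 and 557 CPM in the fasted PBS livers and 511 and 624 CPM in the APAP livers. The groups overlapped in both models, and the log2 fold changes were -0.078 ± 0.49 SE after TAA and 0.025 ± 0.13 SE after APAP. Cyp4a14 spread over a wide range within groups, at 28.9 and 86.2 against 61.5 and 151 CPM in the fed model and 323 and 826 against 779 and 1437 CPM in the fasted model, and was not called in either (adjusted p = 0.359 and 0.368). Cyp4a12a, a male-biased arachidonic acid hydroxylase, was at 309 and 304 CPM in the fasted PBS livers and 109 and 102 CPM in the APAP livers (log2 fold change -1.54 ± 0.11 SE, adjusted p = 2.72e-06). In the fed model it was at 371 and 245 against 83.3 and 179 CPM (adjusted p = 0.0856). Its close relative Cyp4a12b, with which it shares 48.9% of its windows, changed by -1.44 after APAP.

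Of 20 genes outside the P450s that PPARA controls, 12 rose and 2 fell after APAP, and 4 rose and 6 fell after TAA. Among all tested genes, 28.6% rose and 27.5% fell after APAP, and 12.1% rose and 13.8% fell after TAA. Plin2, a lipid droplet coat protein, was at 300.1 and 435 against 4048 and 4087 CPM after APAP (log2 fold change 3.47 ± 0.19 SE, adjusted p = 6.15e-07). Acaa1b, a peroxisomal thiolase, was at 579 and 782 against 1189.9 and 1464 CPM (log2 fold change 0.96 ± 0.17 SE, adjusted p = 0.00107), while Fabp1, the liver fatty acid carrier, fell (3717 and 4082 against 1426 and 1470.0 CPM, adjusted p = 1.19e-05).

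**Figure D4:**
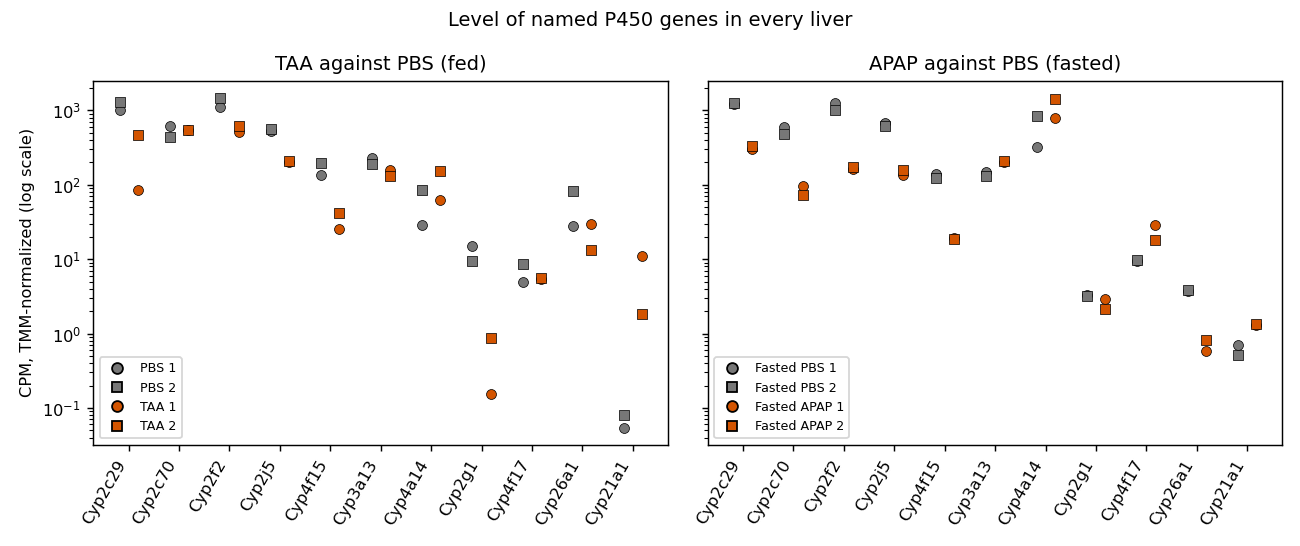
Level of 11 P450 genes (x axis) in every liver as CPM on a log scale (y axis), with grey for PBS and orange for treated livers, circles for replicate 1 and squares for replicate 2. Cyp2f2, Cyp2j5 and Cyp4f15 are lower in every treated liver, whereas Cyp2c70 is lower in the APAP livers and near the controls in the TAA livers. Cyp2g1 is far lower in the TAA livers and, at 2.92 and 2.17 CPM, a little below the fasted controls at 3.29 and 3.19 CPM in the APAP livers.

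Among Cyp1, Cyp2a, Cyp2b and Cyp3a genes, few passed the test. After TAA edgeR called no Cyp1, Cyp2a, Cyp2b, Cyp3a or Cyp4a gene, with 1, 2, 0, 2 and 1 at an unadjusted p under 0.05, and DESeq2 called 0, 1, 1, 1 and 2 lower. Cyp1a1, the classical target of the aryl hydrocarbon receptor (AHR), was at 0.975 and 0.877 CPM in the fasted PBS livers and 1.52 and 2.50 CPM in the APAP livers, higher in both APAP livers (log2 fold change 1.11 ± 0.40 SE, adjusted p = 0.037). After TAA it was at 0.643 and 1.26 against 1.87 and 2.65 CPM (log2 fold change 1.24 ± 0.47 SE, adjusted p = 0.107). The APAP call was lost by DESeq2 (adjusted p = 0.165), and without either fasted PBS replicate or APAP replicate 2 (adjusted p up to 0.3). Cyp1b1 was not called in either model. It was at 0.569 and 0.831 against 1.07 and 1.76 CPM in the fasted model, higher in both APAP livers (log2 fold change 1.02 ± 0.46 SE, adjusted p = 0.0815). In the fed model it was at 1.31 and 1.02 against 0.588 and 1.13 CPM, with overlap (log2 fold change -0.44 ± 0.49 SE, adjusted p = 0.537). Of 5 other AHR targets listed, 1 of 4 tested rose after TAA, and 2 of 3 tested rose and 1 fell after APAP. Among all tested genes, 12.1% rose after TAA, and 28.6% rose and 27.5% fell after APAP. Tiparp rose in both models, from 10.1 and 8.51 to 36.0 and 46.0 CPM after TAA (adjusted p = 0.00367) and from 4.43 and 6.56 to 66.7 and 54.5 CPM after APAP (adjusted p = 2.11e-06). Ugt1a6a fell after APAP (log2 fold change -0.93). Ahrr was not called after TAA (log2 fold change -1.25, adjusted p = 0.288) and was too low to be tested after APAP. Nqo1, a quinone reductase, was at 3.86 and 3.79 against 12.2 and 17.8 CPM in the fasted model (log2 fold change 1.97 ± 0.21 SE, adjusted p = 3.83e-05), and its livers overlapped in the fed model (log2 fold change 0.56 ± 0.39 SE, adjusted p = 0.326). Ahr itself fell after APAP, from 50.6 and 54.1 to 16.3 and 18.3 CPM (log2 fold change -1.60 ± 0.12 SE, adjusted p = 2.98e-06). It was not called after TAA (log2 fold change 0.31, adjusted p = 0.367). The part of AHR in these values was not tested.

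Cyp2a5, the coumarin hydroxylase, was at 1706 and 1101 CPM in the PBS livers and 126 and 498 CPM in the TAA livers. Both TAA livers were lower, by very different amounts, and the call was missed (log2 fold change -2.17 ± 0.68 SE, adjusted p = 0.0731). In the fasted model its livers overlapped, at 882 and 582 against 477 and 711 CPM (log2 fold change -0.30 ± 0.28 SE, adjusted p = 0.407). It shares 38.6% of its windows with other genes, most of them with Cyp2a4. Cyp2a12 fell after APAP (649.6 and 503 against 387 and 346 CPM, log2 fold change -0.65 ± 0.15 SE, adjusted p = 0.00364), and was at 583 and 656 against 509 and 634 CPM in the fed model (adjusted p = 0.712). Cyp2b10, the target gene of CAR, stayed at 0.589 to 6.13 CPM and its groups overlapped in both models. Cyp2b9 had 78 counts over the PBS livers and none over the TAA livers, which is at least 23.3-fold lower, scaled by library totals, against a floor of 3 counts over the group. PBS replicate 2 held 69 of the 78 counts, and the gene was not tested in that model. It fell after APAP as well (1.75 and 2.54 against 0.452 and 1.03 CPM, adjusted p = 0.0185), a call lost by DESeq2 and without fasted PBS replicate 2 or APAP replicate 1.

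Cyp3a13, expressed in liver and gut, had fold changes of opposite sign in the models. It was at 146 and 133 CPM in the fasted PBS livers and 203 and 209 CPM in the APAP livers, higher in both (log2 fold change 0.56 ± 0.11 SE, adjusted p = 0.00179). After TAA it was at 228 and 189 CPM in the PBS livers and 159 and 132 CPM in the TAA livers, lower in both but not called (log2 fold change -0.52 ± 0.19 SE, adjusted p = 0.0953). The difference between the effects was -1.11 ± 0.21 SE, adjusted p = 0.0145, a call lost without PBS replicate 1 or any fasted liver (adjusted p up to 0.0764). Cyp3a25 fell after APAP, at 833 and 748 against 493 and 553 CPM (adjusted p = 0.00276), and stood at 417 and 488 against 239 and 345 CPM in the fed model (adjusted p = 0.112).

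Of the 25 other P450 genes, 6 fell and 1 rose after TAA, and 5 fell and 1 rose after APAP, with 14 tested in each. The falls are 42.9% of the tested members after TAA and 35.7% after APAP. Among all tested genes, 13.8% fell and 12.1% rose after TAA, and 27.5% fell and 28.6% rose after APAP. Cyp2f2 (chr7:27119909-27133660, + strand), which oxidizes naphthalene and is most abundant in periportal hepatocytes, had the highest level per length of all members in the fasted PBS livers (562 CPM per kb of exon). Cyp2d9 followed at 537 CPM per kb. Cyp2f2 was at 1122 and 1484 CPM in the PBS livers and 509 and 607 CPM in the TAA livers (log2 fold change -1.22 ± 0.24 SE, adjusted p = 0.0194), and at 1265 and 1009 CPM in the fasted PBS livers and 164 and 171 CPM in the APAP livers (log2 fold change -2.76 ± 0.15 SE, adjusted p = 4.51e-07). No treated liver reached a control liver, and the mean was 2.33-fold lower after TAA and 6.77-fold lower after APAP. The TAA call was lost without either PBS replicate (adjusted p up to 0.129). The difference between the 2 effects was 1.51 ± 0.28 SE, adjusted p = 0.0121. It was not called without fasted PBS replicate 1 or without either APAP replicate (adjusted p up to 0.0657).

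Cyp2g1 (chr7:26808892-26821205, + strand), known best from the olfactory mucosa, fell after TAA and not detectably after APAP. It was at 14.8 and 9.39 CPM in the PBS livers and 0.153 and 0.865 CPM in the TAA livers, the steepest fall among the called members of that model (log2 fold change -4.57 ± 0.72 SE, adjusted p = 0.0124). In the fasted model it was at 3.29 and 3.19 CPM in the fasted PBS livers and 2.92 and 2.17 CPM in the APAP livers (log2 fold change -0.35 ± 0.29 SE, adjusted p = 0.324). The difference between the effects was -4.25 ± 0.79 SE, adjusted p = 0.0144. Its fall after TAA was not called without PBS replicate 1 or PBS replicate 2 (adjusted p up to 0.0629), and the difference was not called without fasted PBS replicate 1, fasted PBS replicate 2 or APAP replicate 1 (up to 0.0695).

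Cyp4v3, a fatty acid hydroxylase, fell in both models, with 402 and 476 against 177 and 208 CPM (log2 fold change -1.19 ± 0.19 SE, adjusted p = 0.0123) and 428 and 344 against 141 and 139 CPM (log2 fold change -1.46 ± 0.13 SE, adjusted p = 1.19e-05). Cyp2u1, another fatty acid hydroxylase, was at 22.98 and 25.6 against 9.99 and 5.24 CPM (log2 fold change -1.67 ± 0.33 SE, adjusted p = 0.0194) and 20.999 and 16.6 against 7.06 and 5.44 CPM (log2 fold change -1.59 ± 0.19 SE, adjusted p = 6.41e-05). Cyp2r1, which makes the circulating form of vitamin D, was at 19.3 and 9.69 against 5.52 and 6.29 CPM (log2 fold change -1.29 ± 0.36 SE, adjusted p = 0.0483) and 14.3 and 15.2 against 3.45 and 3.89 CPM (log2 fold change -2.002 ± 0.17 SE, adjusted p = 8.67e-06). In each of these 3 genes every treated liver was below both of its controls, as in 34% of all tested genes after TAA and 38.1% after APAP. The TAA call of Cyp2r1 was close to the threshold and was lost without filtering on low counts (adjusted p = 0.0613), with library totals alone (0.0787), in a non-robust fit (0.0515) and without PBS replicate 1 or either TAA replicate (up to 0.169). Those of Cyp4v3 and Cyp2u1 were lost without either PBS replicate (up to 0.0938 and 0.116).

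Genes of sterol, retinoid and steroid metabolism showed single changes. Cyp26a1, which breaks down retinoic acid, was at 3.78 and 3.79 CPM in the fasted PBS livers and 0.575 and 0.808 CPM in the APAP livers (log2 fold change -2.44 ± 0.34 SE, adjusted p = 1.97e-04), and its fed livers spread from 13.1 to 82.0 CPM with overlap (adjusted p = 0.167). Cyp39a1, an oxysterol hydroxylase, was at 10.5 and 10.7 against 14.3 and 14.9 CPM in the fed model and 17.7 and 24.5 against 11.7 and 17.2 CPM in the fasted one, and was not called in either (adjusted p = 0.0981 and 0.0776). Cyp17a1, a steroid hydroxylase and lyase, was at 5.44 and 3.999 against 12.04 and 7.78 CPM after TAA, just outside the threshold (log2 fold change 1.07 ± 0.31 SE, adjusted p = 0.0537), and was called by DESeq2 (adjusted p = 0.0206). After APAP its log2 fold change was -0.082. Cyp46a1, a brain cholesterol hydroxylase, fell after TAA at 0.446 to 3.19 CPM (adjusted p = 0.0317), a call lost without PBS replicate 2 or either TAA replicate.

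Cyp21a1 (chr17:34801348-34804561, - strand), the steroid hydroxylase of the adrenal cortex, was the only member called higher in both models. It had 2 and 3 counts in the PBS livers and 434 and 70 in the TAA livers (log2 fold change 6.52 ± 1.20 SE, adjusted p = 0.019). It passed the filter on low counts in that model through the TAA livers alone. The ratio of summed counts, each over the summed library totals, was 112, with a 95% interval from counting alone of 47.8 to 347. The TAA livers lay far apart, with replicate 1 the higher. In the fasted model it was at 0.690 and 0.508 against 1.31 and 1.32 CPM (log2 fold change 1.12 ± 0.43 SE, adjusted p = 0.0479). The TAA call was lost without either PBS replicate (adjusted p up to 0.111), and the APAP call by DESeq2 and whichever liver was left out (up to 0.198). Its pseudogene Cyp21a2-ps, which holds 23.7% of its 50-base windows, had 445 and 378 counts in the PBS livers and 457 and 114 in the TAA livers, so reads may be split between them. Cyp21a1 also overlaps Tnxa, and strand use in the counting is not given in the sources used here.

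Of the 59 members tested in both models, 13 fell in both, which is 81.2% of the TAA falls and 40.6% of the APAP falls among them. Over all 13812 genes tested in both models 1609 fell in both, which is 73.9% of the TAA falls and 40.6% of the APAP falls, so the shares of the members lay near those of all genes. Cyp21a1 rose in both. The test of the difference between the 2 effects covered 66 members and called 6 (9.09%), 3 in each direction, where 11% of all 17381 genes were called, 4.63% higher and 6.37% lower. Cyp2c70, Cyp2f2 and Cyp21a1 had the higher effect after TAA, and Cyp2g1, Cyp3a13 and Cyp4f17 the lower (-1.65 ± 0.43 SE, adjusted p = 0.0434 for Cyp4f17, and up to 0.162 with 1 liver left out). Without any 1 of the fasted livers, fewer of all tested genes were called in the difference as well. Among members, the number of calls in the difference changed with the liver left out. It was 1 without fasted PBS replicate 1, 2 without fasted PBS replicate 2, 1 without APAP replicate 1 and 3 without APAP replicate 2. It rose to 12 without TAA replicate 1 and 13 without TAA replicate 2.

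**Figure D5:**
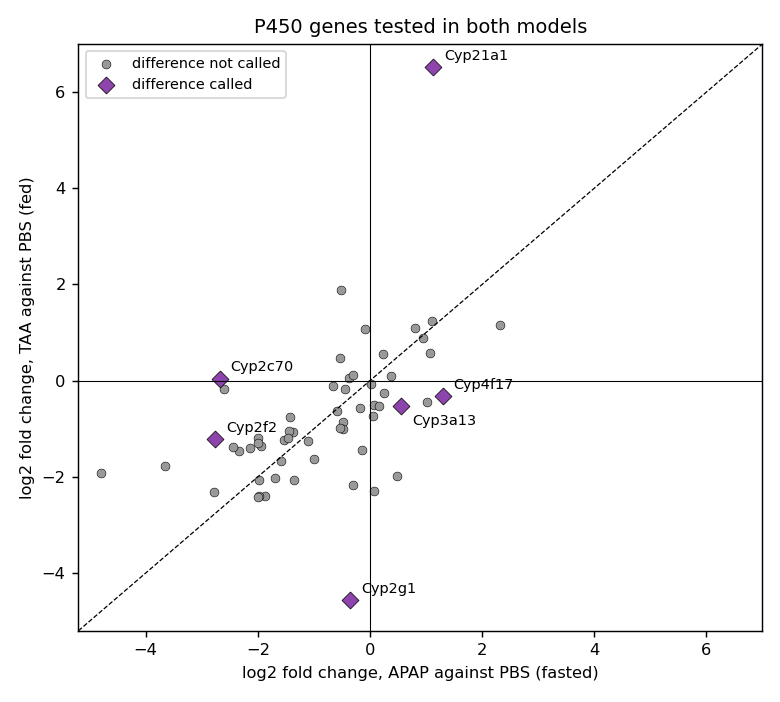
Log2 fold change after TAA (y axis) against that after APAP (x axis) for the 59 P450 genes tested in both models. Diamonds mark the 6 genes whose difference between the models was called, and the dashed line marks equal effects. Cyp2c70 lies at 0.045 after TAA and -2.68 after APAP.

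The Cyp2c and Cyp2j families, which hold arachidonic acid epoxygenases, were taken whole by name (23 genes, with Cyp2c70). They had 4 of 17 tested members lower after TAA and 15 of 16 lower after APAP. Their median log2 fold change was -1.41 after TAA and -1.98 after APAP. Of all tested genes, 13.8% fell after TAA, and 27.5% fell and 28.6% rose after APAP. The fatty acid omega-hydroxylases (18 genes) had 4 of 13 lower after TAA, and 6 of 14 lower and 4 higher after APAP, with medians of -0.74 and 0.04. Of 5 male-biased P450s, 1 of 5 tested fell after TAA and 4 of 4 fell after APAP, with medians of -1.06 and -1.49. Of 10 female-biased P450s, 2 of 6 tested fell after APAP, with a median of -0.11. These were Cyp2b9 and Cyp2c69. After TAA edgeR called 0 of 5 tested, with 2 at an unadjusted p under 0.05 and a median of -1.44, and DESeq2 called 2 lower and 1 higher.

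The electron donors of the P450s did not move as one. Por, the reductase that serves all P450s of the endoplasmic reticulum, was at 313 and 274 CPM in the fasted PBS livers and 713 and 706 CPM in the APAP livers, higher in both (log2 fold change 1.27 ± 0.12 SE, adjusted p = 1.85e-05). After TAA it was at 478 and 551 CPM in the PBS livers and 240.0 and 369 CPM in the TAA livers, lower in both but not called (log2 fold change -0.76 ± 0.26 SE, adjusted p = 0.0874). Cyb5r3 and Cyb5b, a reductase and a cytochrome b5, fell after APAP (log2 fold changes -1.26 and -2.08), and Cyb5b also after TAA (-0.85, adjusted p = 0.0212). Cyb5a, another cytochrome b5, was not called in either model. It was at 923 and 763 CPM in the fasted PBS livers and 854 and 841 CPM in the APAP livers (log2 fold change 0.0088, adjusted p = 0.961). After TAA its log2 fold change was -0.33 (adjusted p = 0.247). Fdx1 and Fdxr, which feed the mitochondrial P450s, fell in both models, with Fdx1 at 128 and 154 against 46.3 and 64.5 CPM after TAA and Fdxr at 96.9 and 92.6 against 30.7 and 33.5 CPM after APAP. In all 8 partners tested, 3 fell after TAA, and 4 fell and 1 rose after APAP. Among all tested genes, 13.8% fell after TAA, and 27.5% fell and 28.6% rose after APAP.

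Of 20 transcription factors that control P450 genes, 10 fell after TAA, where 13.8% of all tested genes fell. After APAP 11 of 19 tested fell and 3 rose, where 27.5% and 28.6% of all tested genes did. Nr1i3, which encodes CAR, was at 272 and 309.9 CPM in the PBS livers and 87.2 and 79.3 CPM in the TAA livers (log2 fold change -1.81 ± 0.17 SE, adjusted p = 0.00378), and at 266 and 260.3 CPM in the fasted PBS livers and 90.1 and 117 CPM in the APAP livers (log2 fold change -1.34 ± 0.14 SE, adjusted p = 2.82e-05). Cebpa, a hepatocyte factor, was at 451 and 544 against 150.3 and 149 CPM (log2 fold change -1.73 ± 0.19 SE, adjusted p = 0.00514) and 271 and 249.6 against 133 and 131 CPM (log2 fold change -0.98 ± 0.11 SE, adjusted p = 5.18e-05). Rxra, the partner of CAR, PXR and PPARA, fell after TAA (512 and 535 against 292 and 258 CPM, adjusted p = 0.0196) and was at -0.055 on the log2 scale after APAP. Nr1h4, the bile acid receptor, fell in both (log2 fold changes -1.08 and -0.95). Hnf4a was at 492 and 467 against 398 and 478 CPM after TAA (adjusted p = 0.653) and 514 and 614 against 431 and 379 CPM after APAP (log2 fold change -0.48 ± 0.13 SE, adjusted p = 0.0125). No link between these factors and the P450 genes was tested.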

How the data were processed

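Total RNA of 8 livers was sequenced. Trim Galore, HISAT2, featureCounts and GRCm38 (mm10) are named in the submitters' processing notes, and their versions are not stated in the sources read for this report. For the fed livers the authors deposited counts of aligned reads per gene as whole numbers. The authors deposited estimated counts, partly fractional, for the fasted livers, made from aligned reads per gene. The latter were rounded, and 548 assembled loci that name no gene (0.457% to 2.46% of a library) were left out. The design had assumed counts for both. A fractional value was found in 49 of the 92 members. Genes were matched by Ensembl ID, so Cyp2c23 is the gene named Cyp2c44 in the fed table. Columns of other samples numbered 0.

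Genes kept by filterByExpr (minimum count 10, minimum total 15) were scaled by TMM and tested in R 4.3.3 with edgeR 4.0.16 (quasi-likelihood, robust, Benjamini-Hochberg over all tested genes), each treatment against its own PBS group. The difference between the effects was tested in all 8 livers. The SE was taken from the fold change and its F statistic and is approximate. Shared sequence was counted in 50-base windows of GENCODE vM21 transcripts, which also gave coordinates. Figures used matplotlib 3.10.9. Alternatives were DESeq2 1.42.0, its size factors, library totals, no filter, non-robust fits, a replicate block, 1 fit of 8 livers, a log2 threshold of 1 and leaving out each liver.

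The labels number the replicates without naming animals, so p-values measure the spread between these samples. Replicates differed far beyond counting noise, and none was a copy. Over all tested genes, the deviations of same-numbered livers were nearly uncorrelated (r = 0.066 and 0.057), and the labels state no pairing. A value over all genes cannot exclude a shared order effect on single genes. Intervals and floors cover counting error only.

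Members and lists were chosen with earlier results of these data known. Named were, per comparison, up to 12 called members in each direction with the largest change, at least 10 CPM and no overlap, the 2 members of highest level per subfamily, up to 10 called in the difference, 12 classical P450 genes, and up to 4 called genes of highest level per list. Others are named where a count called for it.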

Additional observations from a re-analysis of the deposited data

Results flagged for a closer look

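The TAA and APAP effects on 6 P450 genes differed in the test of the difference itself, each effect taken against its own PBS livers (edgeR, adjusted over all 17381 genes). Cyp2c70 differed by 2.69 on the log2 scale, Cyp2f2 by 1.51 and Cyp21a1 by 5.35, with the TAA effect the higher one. Cyp2g1 differed by -4.25, Cyp3a13 by -1.11 and Cyp4f17 by -1.65, with the TAA effect the lower one. Feeding, route and count table differ together with the drug, and these cannot be told apart. The Cyp21a1 value rests on 5 counts in the PBS livers. Leaving out 1 liver in turn gave adjusted p values of 0.000986 to 0.0122 for Cyp2c70, 0.0052 to 0.0657 for Cyp2f2, 0.000506 to 0.160 for Cyp21a1, 0.000569 to 0.0695 for Cyp2g1, 0.00981 to 0.0764 for Cyp3a13 and 0.0191 to 0.162 for Cyp4f17.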

How the results depend on the processing

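The 16 members called lower after TAA became 27 by DESeq2 and 28 in 1 fit of 8 livers, and 1 to 31 with 1 liver left out. The 1 called higher became 4 with library totals alone, 3 by DESeq2, 3 in 1 fit of 8 livers and 0 to 2 with 1 liver left out. All 17 calls remained in the DESeq2 test. After APAP 34 members were lower, 22 in 1 fit of 8 livers and 31 to 33 with 1 liver left out, and 7 were higher, 5 to 7 with 1 left out. In the difference, 3 were higher, 6 by DESeq2 and 1 to 10 with 1 liver left out, and 3 lower, 0 to 9 with 1 left out. The cause was not tested.

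With the replicate number as a block, 4 members were higher and 21 lower after TAA, 6 and 34 after APAP, and 3 and 2 in the difference. Cyp4a14 was then called in both models (adjusted p = 0.018 and 0.000226). By the labels, same-numbered livers share only a number.

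Of 887 alternative values of 79 log2 fold changes of named members, 737 kept direction and side of the threshold, 88 lost the call, 41 gained it and 21 changed sign, none of the last in a called result. With library totals alone, which moved the median of all genes to 0.23 after TAA and 0.22 after APAP, Cyp2a12 was at 0.089, Cyp2c55 at 0.032, Cyp2d26 at 0.040 and Cyp4a10 at 0.14 after TAA, and Cyp17a1 at 0.10 and Cyp2b10 at 0.052 after APAP. With 1 liver left out, values after TAA ranged from -0.28 to 0.031 for Cyp2a12, -2.20 to 0.17 for Cyp2b10, -2.42 to 0.67 for Cyp2c55, -0.16 to 0.28 for Cyp2c70, -0.44 to 0.13 for Cyp2d26, -0.65 to 0.62 for Cyp4a10 and -0.69 to 0.16 for Cyp4f17. After APAP they ranged from -0.60 to 0.29 for Cyp17a1, -0.62 to 0.013 for Cyp2a5, -0.88 to 0.35 for Cyp2b10 and -0.13 to 0.16 for Cyp4a10. With 2 livers per group, members of small change were not detectable beyond this spread.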

Other observations

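P450 genes outside the members also differed between the count tables. Cyp2d13, a gene of the fasted table alone, had 9929 and 7322 estimated counts in fasted PBS livers and 2455 and 2106 after APAP. The pseudogene Cyp2d37-ps had 14684 and 12646 estimated counts in fasted PBS livers and 2925 and 2243 after APAP, and 1473 and 1711 counts in PBS livers and 248 and 265 after TAA. Cyp2a21-ps, which overlaps Cyp2a22, had 1420 and 658 counts in PBS livers, 31 and 425 after TAA and at most 1.02 in a fasted liver. Cyp2d11 had 206, 304, 116 and 172 counts in the fed livers and 3, 0, 2 and 0 in the fasted livers. Levels of single P450 genes in the 2 tables are thus not set against each other here.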
